A study of Mus musculus with 13 samples.

Results

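The 10 genes described here were listed as neighbours of Il33 on mouse chromosome 19 and were found by symbol in the deposited table of 39171 genes in 13 RNA sequencing libraries. They are Uhrf2, Gldc, Ranbp6, Ermp1, Cd274, Plgrkt, Jak2, Rcl1, Glis3 and Kdm4c. On build GRCm38 the GENCODE annotation placed 9 of the 10 on chromosome 19 and Kdm4c on chromosome 4 (74242497 to 74405860, plus strand). Kdm4c is therefore no neighbour of Il33 and is kept below as a listed gene of another chromosome. The table held 44 genes within 2 Mb of Il33 in all, of which 27 are protein-coding. The rule that listed the 10 genes named them as neighbours of Il33 and used no measured value. Earlier results of these data were known when they were listed.

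Interleukin-33, the product of Il33, is an alarm cytokine that astrocytes of the developing spinal cord make. Comparing genotypes at its neighbours addressed whether the targeted allele goes with changes in genes close to it. As general background, targeted alleles can carry inserted regulatory or transcription stop sequence, and the DNA around a targeted gene is inherited together with it. The neighbours are not a functional family. They belong to the DNA and histone modification, glycine, cytokine receptor, immune checkpoint, ribosome and transcription factor systems, and they lie together only by position.

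The libraries were made from cells sorted from the spinal cord of C57BL/6 mice at postnatal day 9 or 12, with astrocytes taken by green fluorescence under the Aldh1l1 gene and microglia by the surface protein CD11b. The 4 groups were Il33 KO microglia (3 libraries) and WT microglia (3), all of day 12, and Il33 KO astrocytes (4) and WT astrocytes (3). KO astrocyte library 2 and WT astrocyte library 3 were of day 9, and the other astrocyte libraries of day 12. KO mice carried the Il33 allele of Pichery et al., known as a gene trap with a lacZ reporter, in all their cells. WT mice were littermates, and the astrocyte reporter served both genotypes. The sources used here do not give the strain from which the sequence flanking the allele came. The series' design text calls the libraries within each group biological replicates.

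Values are FPKM, which correct fragments for the length of the transcript and the size of the library. The number of reads per library is unknown, and steps between the lowest values gave depths relative to KO microglia library 2 of 73.5% to 100% for microglia and 33.6% to 63.3% for astrocytes. The 10 astrocyte markers summed to 65.0 to 105 FPKM in the microglia libraries and to 6242 to 10868 in the astrocyte libraries, and the 10 microglia markers to 9259 to 10165 FPKM in the microglia libraries and 8.86 to 67.0 in the astrocyte libraries. No marker was at 0 in every library of its own cell type. The 8 oligodendrocyte markers reached 5720 to 8160 FPKM in KO astrocytes and 4530 to 6273 in WT astrocytes, close to the astrocyte markers themselves. They summed to 1609 to 2632 FPKM in KO microglia and 1069 to 1820 in WT microglia, far above the astrocyte markers there. The libraries of both cell types thus also held RNA of oligodendrocyte genes. In bulk RNA of this kind, fewer cells of a type and less RNA per cell cannot be told apart. Xist, the RNA of the inactive X chromosome, was at 0.376, 0.366 and 0.145 FPKM in KO microglia, against 268, 283 and 0.713 FPKM in WT microglia. Expression of this female marker thus separated WT microglia libraries 1 and 2 from the other 4 microglia libraries. Sex and genotype can be told apart there only through WT library 3. In astrocytes Xist was at 0.133, 0.307, 10.1 and 32.4 FPKM in KO and at 0.370, 32.9 and 4.10 FPKM in WT. Low and high values thus occurred in both astrocyte genotypes, and the part of sex in the astrocyte differences was not tested.

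Il33 itself lies at 29925114 to 29960718 on the plus strand of chromosome 19. It held 2.28, 2.05, 0.424 and 0.733 FPKM in KO astrocytes, against 96.3, 113 and 108 FPKM in WT astrocytes (exact two-sided permutation p = 0.0286, the smallest that 4 against 3 libraries allow). The limma log2 difference was -5.55 (SE 0.35, Benjamini-Hochberg adjusted p = 0.0130). The limma adjusted p of Il33 was 0.138 with no filter on low values, 0.0698 in day 12 libraries only and 0.924 with the replicate number as a block. It was 0.136 without KO astrocyte library 2, 0.0688 without WT astrocyte library 1 and 0.138 without WT astrocyte library 3. The log2 difference itself ranged from -6.38 to -5.36 over the 13 alternatives. In microglia Il33 was at 0.136, 0.00739 and 0 FPKM in KO, against 0.299, 0 and 1.26 FPKM in WT (p = 0.4 by the exact permutation test, which cannot go under 0.1 with 3 against 3).

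After Il33 on the chromosome come, of the listed genes, Uhrf2 and Gldc. Uhrf2 (30030513 to 30093722, plus strand) begins 69.8 kb beyond the end of Il33, and Gldc (30098447 to 30175429, minus strand) lies 138 kb beyond it. Uhrf2 and Gldc face each other tail to tail with 4724 bases between them. Before Il33 the nearest listed gene is Ranbp6 (29808400 to 29812974, minus), at 112 kb. Ermp1 (29608214 to 29648415, minus) follows at 277 kb, Cd274 (29367455 to 29388095, plus) at 537 kb and Plgrkt (29348599 to 29367390, minus) at 558 kb. In GENCODE, Cd274 and Plgrkt start head to head, with 64 bases between their first bases. RefSeq places the start of Plgrkt further off, with 5566 bases between it and the RefSeq start of Cd274. Jak2 (29251828 to 29313080, plus) lies at 612 kb, Rcl1 (29101375 to 29143929, plus) at 781 kb and Glis3 (28258851 to 28680077, minus) at 1245 kb. Whether the counting used strand is not stated, so reads of overlapping antisense genes cannot be told apart. This makes Ranbp6, which shares 173 exonic bases with the antisense gene AC120159.1, and Cd274, which shares 511 with AC119228.1, uncertain.

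The promoters of Uhrf2 and Gldc are printed because these are the nearest listed genes beyond Il33 and their levels differed between the cell types in opposite directions. That of Cd274 is printed because its window also holds the GENCODE start of Plgrkt, a gene read at a far higher level. Each runs from 250 bases before to 50 bases after the RefSeq start on build GRCm38.p6, 5′ to 3′, with CpG dinucleotides in capitals. The Uhrf2 window is chr19:30030263-30030562 (plus strand), the Gldc window chr19:30175392-30175691 (minus strand) and the Cd274 window chr19:29367188-29367487 (plus strand).
Uhrf2: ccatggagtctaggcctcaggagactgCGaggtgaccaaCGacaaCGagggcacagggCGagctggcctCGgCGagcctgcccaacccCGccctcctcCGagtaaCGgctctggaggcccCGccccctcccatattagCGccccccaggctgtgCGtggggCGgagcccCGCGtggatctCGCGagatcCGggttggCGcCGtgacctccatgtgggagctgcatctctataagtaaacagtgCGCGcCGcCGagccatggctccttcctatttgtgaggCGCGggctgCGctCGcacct
Gldc: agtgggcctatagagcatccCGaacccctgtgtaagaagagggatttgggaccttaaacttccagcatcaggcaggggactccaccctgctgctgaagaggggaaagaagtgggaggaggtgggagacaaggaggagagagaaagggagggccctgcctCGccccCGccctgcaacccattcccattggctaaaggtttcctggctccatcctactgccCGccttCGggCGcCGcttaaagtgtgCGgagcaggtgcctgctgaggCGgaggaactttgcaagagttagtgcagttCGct
Cd274: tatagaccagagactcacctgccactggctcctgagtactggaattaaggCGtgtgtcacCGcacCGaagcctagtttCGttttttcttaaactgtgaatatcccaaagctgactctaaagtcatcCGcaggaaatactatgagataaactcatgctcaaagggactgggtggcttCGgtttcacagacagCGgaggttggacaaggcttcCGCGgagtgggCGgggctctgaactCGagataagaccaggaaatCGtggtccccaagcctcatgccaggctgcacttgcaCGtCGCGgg
The Uhrf2 window holds 28 CpG dinucleotides, the Gldc window 10 and the Cd274 window 15, against a median of 7 over all 32851 mouse promoters of RefSeq. In the Cd274 window the annotated GENCODE start of Plgrkt is base 203, read on the other strand, and that of Cd274 is base 268. RefSeq promoters were found for all 10 genes, 11 in all since Kdm4c has 2. Jak2 held the most CpG dinucleotides, with 44, and 97.8% of all promoters hold fewer. Ranbp6 and Rcl1 held 27 each, Glis3 32, Plgrkt 17 (at a RefSeq start that differs from the GENCODE one), Ermp1 14 and the promoters of Kdm4c 0 and 28. Neither the STAT motif TTCNNNGAA nor the TATA motif TATAAA, searched on both strands, occurred in any of the 11 promoters. Over all promoters 8.30% hold the STAT motif and 13.6% the TATA motif.

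Which of these genes each sorted population reads was taken from the WT groups. Plgrkt and Uhrf2 had the highest means in microglia and Ermp1 in astrocytes, while Plgrkt, Uhrf2 and Ermp1 were read in both populations and differed in level. In the limma fit of all 13 libraries, 5 of the 10 genes differed between WT microglia and WT astrocytes at an adjusted p under 0.05, against 53.6% of the 16258 genes tested. Uhrf2, Plgrkt and Cd274 were higher in microglia, as were 29.1% of all genes, and Gldc and Ermp1 were lower, as were 24.5%. The share of listed genes called was thus close to that of all genes.

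Plgrkt, the gene of a plasminogen receptor of the cell surface, held 68.8, 80.1 and 134 FPKM in WT microglia and 21.5, 27.1 and 36.8 FPKM in WT astrocytes. Its log2 difference was 1.75 (SE 0.29, limma adjusted p = 0.000508). Uhrf2 encodes a ubiquitin ligase that binds methylated and hydroxymethylated DNA. It held 47.1, 84.1 and 42.4 FPKM in WT microglia and 17.2, 17.9 and 10.3 FPKM in WT astrocytes, a difference of 1.74 (SE 0.35, limma adjusted p = 0.00177). For both genes every WT microglia library was above every WT astrocyte library. Cd274 encodes the ligand of the inhibitory T cell receptor Pdcd1. It held 4.61, 2.26 and 3.32 FPKM in WT microglia and 0.614, 1.05 and 0.192 FPKM in WT astrocytes (log2 difference 1.30, SE 0.34, limma adjusted p = 0.00768). Quantile normalisation moved the median difference of all genes in this contrast to -0.039, against 0.21 without it, and under it the Cd274 difference was 0.65 (limma adjusted p = 0.179).

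Gldc, the glycine decarboxylase of the mitochondrial glycine cleavage system, was at 0.840, 0 and 0.182 FPKM in WT microglia and at 7.09, 12.1 and 5.24 FPKM in WT astrocytes. The log2 difference was -2.88 (SE 0.36, limma adjusted p = 5.71e-05). Gldc was thus read mainly in astrocytes, while its tail-to-tail partner Uhrf2 was higher in microglia. The ratio of mean FPKM of Uhrf2 to Gldc was 715 in KO microglia, 170.01 in WT microglia, 1.22 in KO astrocytes and 1.85 in WT astrocytes. The microglial ratios rest on Gldc means near the limit of detection, 0.0673 FPKM in KO and 0.340 in WT, and do not measure a genotype difference. Ermp1 encodes a metallopeptidase of the endoplasmic reticulum. It held 9.98, 9.38 and 7.56 FPKM in WT microglia and 36.0, 40.0 and 29.9 FPKM in WT astrocytes (log2 difference -1.98, SE 0.17, limma adjusted p = 4.21e-06).

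Not called between the WT cell types were Kdm4c, Jak2, Rcl1, Glis3 and Ranbp6. Kdm4c, a histone lysine demethylase, held 6.56, 11.5 and 18.8 FPKM in WT microglia and 4.87, 7.80 and 6.51 FPKM in WT astrocytes (log2 difference 0.77, SE 0.37, limma adjusted p = 0.1001). Without WT microglia library 1 its difference was 1.12 (limma adjusted p = 0.0164). Jak2, the tyrosine kinase that passes signals of cytokine receptors to STAT proteins, held 8.07, 8.33 and 8.34 FPKM in WT microglia and 8.03, 4.57 and 6.77 FPKM in WT astrocytes. Its groups did not overlap, yet its difference of 0.39 (SE 0.23, 95% interval -0.12 to 0.91) had a limma adjusted p of 0.178. Without WT astrocyte library 1 the difference was 0.64 (limma adjusted p = 0.0447). Rcl1, which in yeast is needed to process the precursor of small-subunit ribosomal RNA, differed by -0.53 (SE 0.44, limma adjusted p = 0.329), and by -1.13 after quantile normalisation (limma adjusted p = 0.0488). Glis3, a zinc finger transcription factor known from the pancreas and thyroid, differed by -0.31 (SE 0.44, limma adjusted p = 0.572). Ranbp6, a nuclear import receptor of the importin beta family, differed by -0.0062 (95% interval -0.76 to 0.75).

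**Figure D1:**
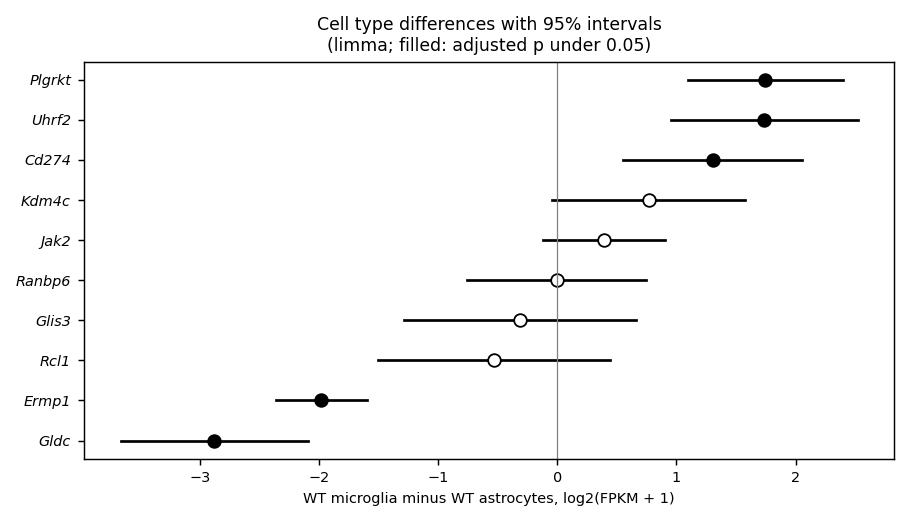
WT microglia minus WT astrocytes for the 10 listed genes, as limma differences of log2(FPKM + 1) with 95% intervals on the x axis. Filled points passed an adjusted p of 0.05, with Plgrkt, Uhrf2 and Cd274 above 0 and Ermp1 and Gldc below 0.

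Within WT microglia the genes ran, by mean FPKM, from Plgrkt (94.1 ± 34.6, SD, n = 3) and Uhrf2 (57.9 ± 22.9) through Kdm4c, Ermp1, Jak2, Ranbp6, Glis3, Cd274 and Rcl1 to Gldc. Of the 9 pairs of neighbours in that order, 7 overlapped between libraries, and the steps below Uhrf2 and below Jak2 stood apart. In KO microglia the order began Plgrkt, Uhrf2, Kdm4c, Ermp1 and Jak2 too, and 5 of 9 steps stood apart. Within astrocytes the order began with Ermp1 (31.9 ± 4.68 FPKM in KO, n = 4, and 35.3 ± 5.06 in WT, n = 3), Plgrkt, Uhrf2 and Gldc in both genotypes and ended with Rcl1 and Cd274. Only the step below Plgrkt stood apart, and 8 of 9 neighbouring pairs overlapped in each genotype. The cell type differences were also seen in the KO groups. In KO libraries, 6 of the 10 genes had cell types that did not overlap, against 62.3% of all genes, and in WT libraries likewise 6, against 55.8%. For 5 genes (Uhrf2, Plgrkt, Cd274, Gldc and Ermp1) they were apart in the same direction in both genotypes, as for 47.1% of all genes. Plgrkt and Cd274 stayed far apart in level, with a ratio of mean FPKM of Plgrkt to Cd274 of 39.2 in KO microglia, 27.7 in WT microglia, 65.3 in KO astrocytes and 46.1 in WT astrocytes.

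**Figure D2:**
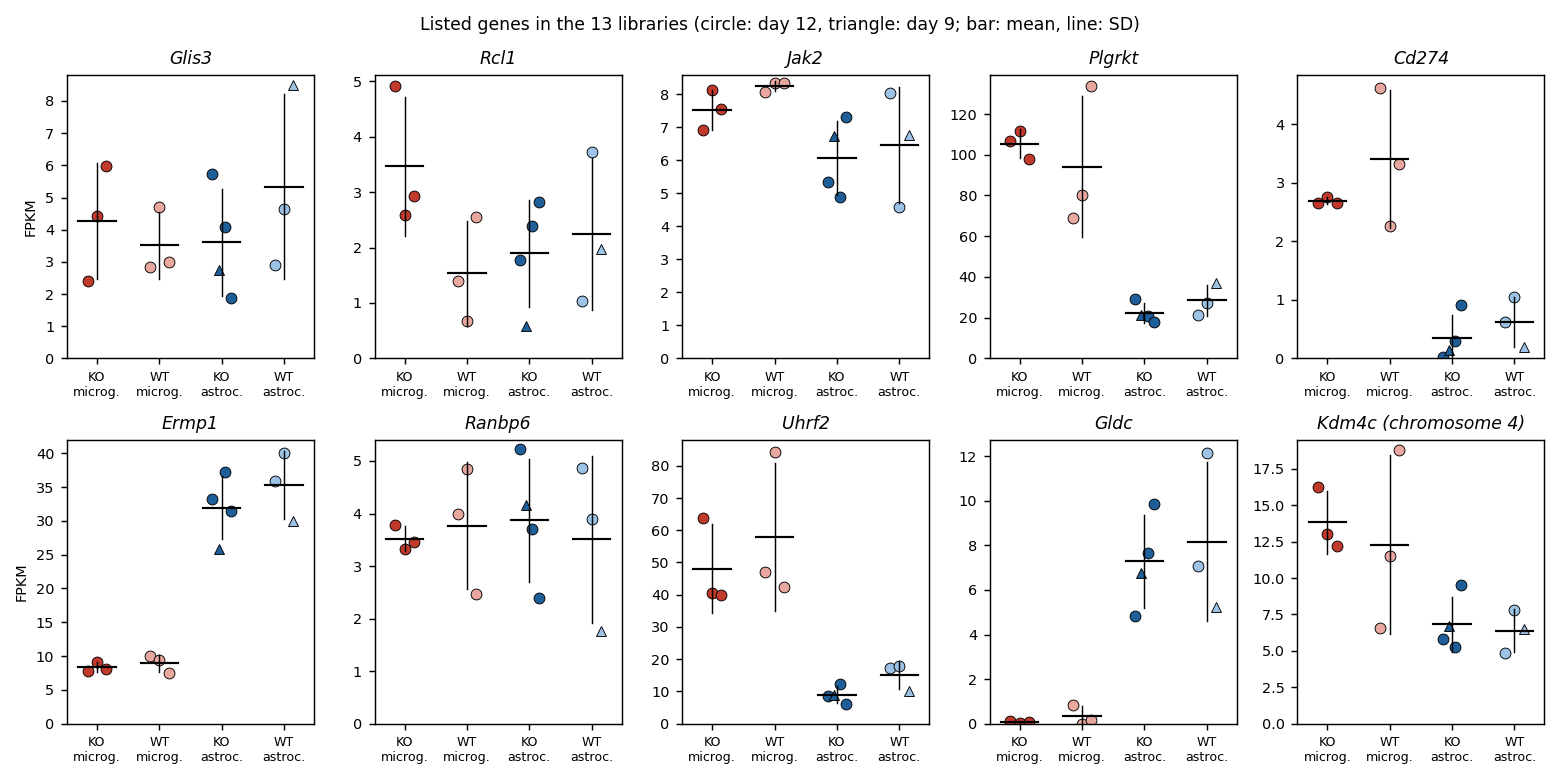
FPKM of the 10 listed genes in each of the 13 libraries, by group on the x axis (microg., microglia; astroc., astrocytes), with circles for day 12 and triangles for day 9, bars for group means and vertical lines for SD, cut at 0. The cell types separate for Plgrkt, Uhrf2, Cd274, Ermp1 and Gldc, and KO and WT of a cell type overlap in every panel except Rcl1 in microglia.

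Between KO and WT microglia none of the 10 listed genes passed the test. With limma, 0 of the 10 had an adjusted p under 0.05, against 0.0818% of the 15891 genes tested (13 genes), and 0 had an unadjusted p under 0.05, against 7.96%. The listed genes' log2 differences ran from -0.28 for Gldc to 0.85 for Rcl1, with 4 above 0 and 6 below, and their limma adjusted p from 0.602 to 0.970. The median of the 10 was -0.066, beside 0.023 over all genes tested. No listed gene passed under any of the 10 alternatives tried for each, and the lowest limma adjusted p among these was 0.477, for Plgrkt without WT microglia library 3.

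Rcl1 was the listed gene with the smallest p. It held 4.91, 2.58 and 2.92 FPKM in KO microglia, against 1.40, 0.668 and 2.54 FPKM in WT microglia. Every KO library was above every WT library, as for 8.41% of all genes (15.9% in either direction), and the margin between KO library 2 and WT library 3 was narrow. The log2 difference was 0.85 (SE 0.38, 95% interval -0.084 to 1.78, limma adjusted p = 0.602). It ranged from 0.58 to 1.25 over the 10 alternatives. WT library 3, the WT library that like the KO libraries was low in Xist, was the WT library highest in Rcl1. The part of sex in this difference was not tested. The markers of neutrophils, another CD11b cell type, summed to 54.6 to 111 FPKM over 5 genes in KO microglia and 130 to 260 in WT microglia, without overlap, and none of the 5 was at 0 in every library of either group. The markers of neurons, 7 genes of which likewise 0 were at 0 in every library of either group, were also apart, at 2.94 to 4.97 FPKM in KO microglia and 8.41 to 34.1 in WT microglia. The other 7 of the 9 marker lists overlapped between KO and WT microglia. The part of neutrophil, neuron and oligodendrocyte RNA in the microglial differences was not tested.

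The listed genes nearest Il33 showed no separation of the genotypes in microglia. Uhrf2 held 64.0, 40.5 and 39.9 FPKM in KO microglia, against 47.1, 84.1 and 42.4 in WT microglia (log2 difference -0.23, SE 0.33, 95% interval -1.04 to 0.58). Ranbp6 held 3.78, 3.32 and 3.45 FPKM in KO, against 3.99, 4.85 and 2.46 in WT (-0.045, 95% interval -0.68 to 0.59). The KO values of Ranbp6 lay within the WT range, and for Uhrf2 the ranges overlapped. The unlisted gene 9930021J03Rik, 119 kb from Il33, averaged 17.6 ± 1.77 FPKM in KO and 25.3 ± 7.49 in WT (SD, n = 3 each). Its log2 difference was -0.46 (SE 0.24, limma adjusted p = 0.647), and the genotypes overlapped. Gldc was near the limit of detection, at 0.107, 0.0144 and 0.0801 FPKM in KO microglia and 0.840, 0 and 0.182 in WT microglia. Its difference of -0.28 (95% interval -1.41 to 0.85) is on the log2(FPKM + 1) scale, which understates the change of low genes.

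Further out, the intervals were narrowest for Jak2 and Ermp1. Jak2 held 6.92, 8.11 and 7.54 FPKM in KO microglia, against 8.07, 8.33 and 8.34 in WT microglia (log2 difference -0.12, SE 0.16, 95% interval -0.51 to 0.27). The WT values lay close together, with an SD of 0.151 FPKM, and KO library 2 fell among them. Ermp1 held 7.79, 9.14 and 8.13 FPKM in KO, against 9.98, 9.38 and 7.56 in WT (-0.087, 95% interval -0.53 to 0.36). Cd274 held 2.66, 2.76 and 2.65 FPKM in KO, against 4.61, 2.26 and 3.32 in WT (-0.22, 95% interval -0.88 to 0.44). The 3 KO values of Cd274 lay within the WT range. Plgrkt averaged 105 ± 6.97 FPKM in KO and 94.1 ± 34.6 in WT (0.22, 95% interval -0.44 to 0.88), and Glis3 averaged 4.27 ± 1.79 in KO and 3.51 ± 1.04 in WT (0.19, 95% interval -0.65 to 1.03; SD, n = 3 each). Kdm4c of chromosome 4 averaged 13.8 ± 2.16 FPKM in KO and 12.3 ± 6.15 in WT (SD, n = 3 each), a difference of 0.26 (95% interval -0.65 to 1.17), within the range of the chromosome 19 genes.

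In astrocytes, where Il33 itself is read, none of the 10 listed genes passed the test between KO and WT either. With limma, 0 of the 10 had an adjusted p under 0.05, against 0.0224% of the 13398 genes tested (3 genes), and 0 had an unadjusted p under 0.05, against 4.19%. The groups overlapped for all 10, while they did not for 4.68% of all genes. Log2 differences ran from -0.72 for Uhrf2 to 0.12 for Ranbp6, with 2 above 0 and 8 below and limma adjusted p from 0.921 to 0.990. The median of the 10 was -0.19, beside 0.0012 over all genes tested. Over the 13 alternatives for each gene the lowest limma adjusted p was 0.722, and some of these alternatives called 0 genes of the whole table.

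Uhrf2, the nearest of the listed genes, had the smallest p. It held 8.45, 8.89, 12.3 and 6.01 FPKM in KO astrocytes, against 17.2, 17.9 and 10.3 FPKM in WT astrocytes. The KO and WT ranges overlapped, and the day 9 WT library was the lowest of its group. The log2 difference with age as a covariate was -0.72 (SE 0.31, 95% interval -1.46 to 0.011, limma adjusted p = 0.921). In day 12 libraries only it was -0.95 (SE 0.37, limma adjusted p = 0.809), from 3 KO and 2 WT libraries. At day 9 there was 1 library of each genotype, with 8.89 FPKM in KO and 10.3 in WT.

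The other listed genes near Il33 overlapped widely in astrocytes. Gldc held 4.84, 6.78, 7.67 and 9.87 FPKM in KO astrocytes, against 7.09, 12.1 and 5.24 in WT astrocytes (log2 difference -0.14, SE 0.35, 95% interval -0.96 to 0.68). Ranbp6 held 5.23, 4.16, 3.70 and 2.39 FPKM in KO, against 4.87, 3.89 and 1.76 in WT (0.12, 95% interval -0.81 to 1.04). In day 12 libraries only the Ranbp6 difference was -0.21. Ermp1, the most abundant of the listed genes here, held 33.3, 25.9, 37.2 and 31.4 FPKM in KO, against 36.0, 40.0 and 29.9 in WT (-0.17, SE 0.17, 95% interval -0.57 to 0.23). This was the narrowest interval of the 10, and KO library 2 and WT library 3, both of day 9, were the lowest of their groups.

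Plgrkt held 29.3, 21.3, 20.9 and 17.7 FPKM in KO astrocytes, against 21.5, 27.1 and 36.8 in WT astrocytes (log2 difference -0.31, 95% interval -0.92 to 0.30). Jak2 held 5.35, 6.72, 4.90 and 7.29 FPKM in KO, against 8.03, 4.57 and 6.77 in WT (-0.049, 95% interval -0.76 to 0.66). Glis3 held 5.72, 2.75, 4.08 and 1.89 FPKM in KO, against 2.89, 4.64 and 8.49 in WT (-0.41, 95% interval -1.48 to 0.66). In day 12 libraries only the Glis3 difference was -0.019, since the highest value belonged to the day 9 WT library. Cd274 was low throughout, at 0.0205, 0.143, 0.294 and 0.907 FPKM in KO and 0.614, 1.05 and 0.192 in WT (-0.31, 95% interval -1.44 to 0.82). Rcl1 averaged 1.90 ± 0.972 FPKM in KO (n = 4) and 2.24 ± 1.37 in WT (n = 3; -0.20, 95% interval -1.29 to 0.89). Kdm4c averaged 6.82 ± 1.88 FPKM in KO (n = 4) and 6.39 ± 1.47 in WT (n = 3; 0.075, 95% interval -0.67 to 0.82). Rcl1, whose KO and WT microglia libraries did not overlap, thus overlapped between genotypes in astrocytes. Of the 9 marker lists, 1 was apart between the astrocyte genotypes. The 5 markers of endothelial cells, none at 0 in every library of either group, summed to 14.4 to 22.2 FPKM in KO astrocytes and 26.0 to 54.1 in WT astrocytes. The marker sums of oligodendrocytes overlapped. The part of endothelial and oligodendrocyte RNA in these differences was not tested. Day of age had no called effect on any of the 10 in this fit, where the lowest limma adjusted p was 0.676.

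**Figure D3:**
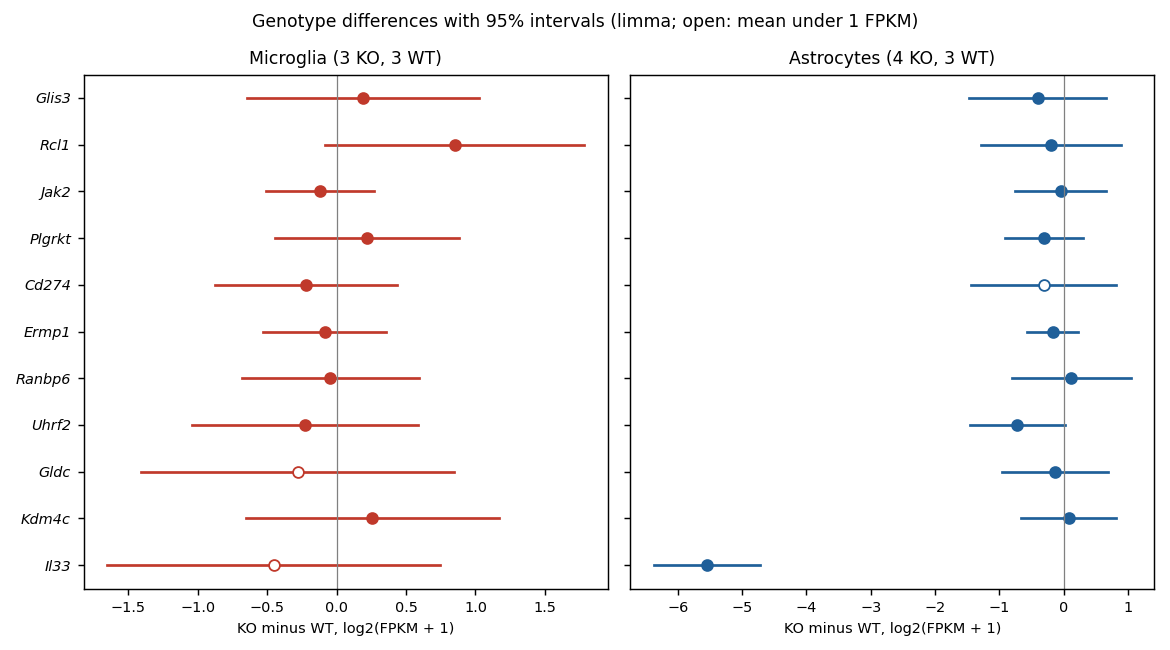
KO minus WT differences of log2(FPKM + 1) with 95% intervals (limma) for the 10 listed genes and Il33, in microglia and in astrocytes, with open points where the mean was under 1 FPKM. All 20 intervals of the listed genes include 0, and that of Il33 in astrocytes lies between -6.37 and -4.73.

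The difference between cell types in the effect of genotype was tested directly as an interaction. Of the 10 listed genes 0 passed with limma, against 0.141% of the 16258 genes tested (23 genes), and 0 had an unadjusted p under 0.05, against 6.62%. Rcl1 had the largest value, with KO minus WT in microglia exceeding KO minus WT in astrocytes by 1.05 on the log2 scale (SE 0.57, 95% interval -0.21 to 2.31, limma adjusted p = 0.788). Il33 differed by 5.10 (SE 0.51, limma adjusted p = 0.00177).

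The wider neighbourhood gave the same count of calls. Of the 44 genes within 2 Mb of Il33, leaving out Il33, 26 were tested in microglia and 19 in astrocytes. With limma 0 passed in either cell type, beside 0.0818% of all genes in microglia and 0.0224% in astrocytes. In microglia 1 (3.85%) had an unadjusted p under 0.05, beside 7.96% of all genes, and in astrocytes 0, beside 4.19%. In microglia 6 (23.1%) were above 0 and 20 below, with a median log2 difference of -0.22, beside 52.3% above 0 and a median of 0.023 over all genes. In astrocytes 4 (21.1%) were above and 15 below, with a median of -0.14, beside 50.1% and 0.0012. These windows include the 9 listed genes of chromosome 19. Without them the median was -0.34 in microglia, with 3 above 0 and 14 below, and -0.034 in astrocytes, with 3 above and 7 below. Both microglial counts below 0 include Mir101b and Gm20407, which reached the filter's mean of 1 FPKM only through WT, so their direction follows from the filter. Mir101b held 12.5 FPKM in WT library 2 and 0 in the other microglia libraries, and Gm20407 averaged 0.641 FPKM in KO and 2.91 in WT. The medians were nearer 0 in wider windows, at -0.050 in microglia and -0.083 in astrocytes within 5 Mb, and at 0.056 and -0.031 over the whole chromosome. With no filter on low values the 2 Mb medians were -0.087 in microglia, with 11 above 0 and 30 below, and -0.050 in astrocytes, with 10 above and 22 below. No test of the window as a set was made.

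In microglia the window genes with the smallest p were A930007I19Rik, Rcl1 and Gm20407. The antisense transcript A930007I19Rik, 402 kb from Il33, held 5.42, 3.82 and 5.18 FPKM in KO microglia, against 7.04, 6.58 and 7.65 in WT microglia. All KO values lay below all WT values (log2 difference -0.49, SE 0.20, limma adjusted p = 0.595). KO and WT were apart, in either direction, for 15.9% of all genes tested in microglia. The antisense transcript Gm20407, 1929 kb away, held 1.32, 0.452 and 0.152 FPKM in KO, against 1.59, 1.52 and 5.60 in WT (-1.16, SE 0.51, limma adjusted p = 0.602). Both are annotated as antisense, and they are uncertain for want of a stated strand. In astrocytes the smallest p after Uhrf2 belonged to Slc1a1 and Prkg1. Slc1a1, a glutamate transporter gene at 1011 kb, held 3.51, 7.04, 2.42 and 6.31 FPKM in KO astrocytes, against 5.01, 18.8 and 5.61 in WT astrocytes (-0.75, SE 0.55, limma adjusted p = 0.921). Prkg1, a cyclic GMP-dependent kinase gene at 604 kb, held 6.74, 9.47, 6.70 and 6.81 FPKM in KO, against 6.92, 8.14 and 17.9 in WT (-0.35, SE 0.26, limma adjusted p = 0.921). For both, 1 high WT library (library 2 for Slc1a1 and library 3 for Prkg1) stood above the remaining values.

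**Figure D4:**
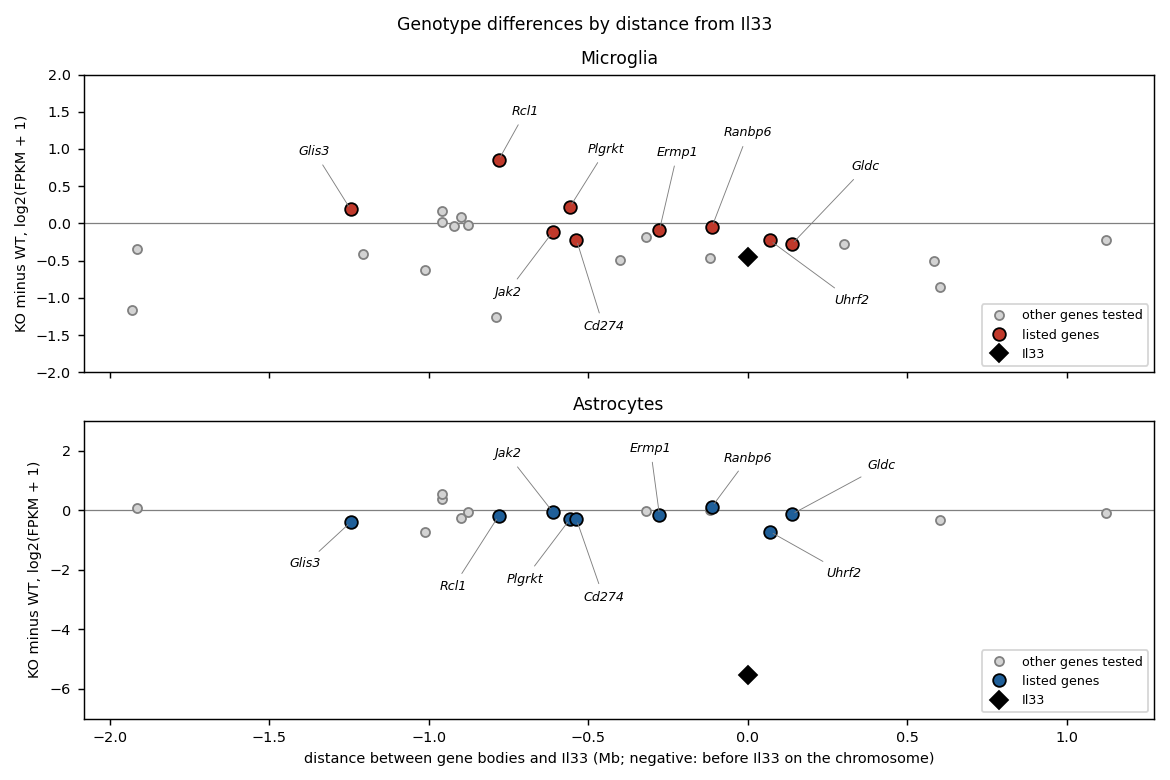
KO minus WT difference of log2(FPKM + 1) against the distance between each gene and Il33 in Mb, for the genes tested within 2 Mb, in microglia and astrocytes on separate y scales. Listed genes are coloured and Il33 is a diamond, and in astrocytes Il33 lies at -5.55 while no other gene of the window lies below -0.75.

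The authors' deposited tables of differences, which list only genes past their own threshold, held none of the 10 listed genes in either cell type. Other than Il33, the authors' deposited tables held no gene within 5 Mb of Il33. In the authors' deposited table for astrocytes, Il33 had a mean of 115 normalised counts in KO and 8730 in WT (adjusted p = 8.33e-27). The nearest other chromosome 19 gene in the authors' deposited table for astrocytes was Ide, 7.31 Mb away, with 15267 normalised counts in KO and 10710.3 in WT (adjusted p = 0.0340). In the authors' deposited table for microglia it was Ptar1, 6.19 Mb away, with 249.7 normalised counts in KO and 434 in WT (adjusted p = 0.0340). Ide was also in the authors' deposited table for microglia, with 3034 normalised counts in KO and 1592 in WT (adjusted p = 0.0196). Of the 483 genes in the authors' deposited table for microglia, 17 (3.52%) lay on chromosome 19 apart from Il33, beside 3.11% of all genes tested here. Of the 10 genes in the authors' deposited table for astrocytes, 1 (10%), Ide, lay there apart from Il33, beside 3.23% of all genes tested here.

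Genes that work with the listed genes or belong to their families, here called partners, were taken from 9 sets holding 67 genes. Between KO and WT microglia, 55 of them were tested and 0 passed with limma, beside 0.0818% of all genes. Among the 55, 7 (12.7%) had an unadjusted p under 0.05, beside 7.96% of all genes. Of the 55, 36 (65.5%) were above 0 and 19 below with a median of 0.13, beside 52.3% above 0 and a median of 0.023 over all genes. Between KO and WT astrocytes, 49 were tested and 0 passed with limma, beside 0.0224% of all genes. Among the 49, 2 (4.08%) had an unadjusted p under 0.05, beside 4.19% of all genes. Of the 49, 26 (53.1%) were above 0 and 23 below with a median of 0.074, beside 50.1% above 0 and a median of 0.0012 over all genes. The partners with the smallest p in microglia were Tet3, which oxidises methylated cytosine, and Socs3, a feedback inhibitor of the JAK and STAT pathway. Tet3 held 60.6, 49.1 and 51.6 FPKM in KO microglia, against 33.5, 35.2 and 25.2 in WT microglia (log2 difference 0.77, SE 0.19, limma adjusted p = 0.514). Socs3 held 45.4, 38.2 and 42.7 FPKM in KO, against 68.5, 58.2 and 77.6 in WT (-0.67, SE 0.17, limma adjusted p = 0.518). The genotypes did not overlap for either gene, as for 15.9% of all genes in either direction, and neither passed. In astrocytes they were Stat5b, a transcription factor that JAK kinases activate, and Psph, the last enzyme of serine synthesis. Stat5b held 2.72, 3.40, 5.67 and 4.89 FPKM in KO astrocytes, against 9.27, 9.36 and 6.71 in WT astrocytes (-0.92, SE 0.31, limma adjusted p = 0.921). Psph held 36.6, 60.5, 45.4 and 64.2 FPKM in KO, against 28.4, 12.8 and 56.7 in WT (0.92, SE 0.38, limma adjusted p = 0.921). KO and WT were apart for Stat5b, as for 4.68% of all genes in either direction, and overlapped for Psph.

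Between the WT cell types 26 of the 59 partners tested were higher in microglia with limma (44.1%, beside 29.1% of all genes) and 15 lower (25.4%, beside 24.5%). Of the 9 genes of glycine cleavage, serine and glycine synthesis and glycine transport (Slc6a9), the set of Gldc, 8 were lower in microglia and 1 (Shmt1) was higher with limma. Amt, another protein of the same cleavage complex, averaged 0.503 ± 0.485 FPKM in WT microglia and 9.78 ± 2.67 in WT astrocytes (SD, n = 3 each). Its difference was -2.80 (limma adjusted p = 5.31e-05). Gcsh, the lipoate carrier of the complex, averaged 7.29 ± 3.36 FPKM in WT microglia and 130.1 ± 18.2 in WT astrocytes (SD, n = 3 each; -4.13, limma adjusted p = 1.75e-06). Of 18 tested genes of cytokine signalling, the set of Jak2, 12 were higher in microglia and 1 lower, with a median log2 difference of 1.42, beside 0.21 over all genes. Of the 4 tested Gli-like zinc finger genes, the set of Glis3, 0 were higher and 3 lower in microglia, while Glis3 itself was not called. In the remaining 6 sets, 4 of 7 DNA methylation genes were higher in microglia and 1 lower, 3 of 4 plasminogen genes higher and 1 lower, and 3 of 8 genes of the small-subunit processome higher and 0 lower. The 2 tested genes of the set of Cd274, Cd80 and Cd86, were higher in microglia. Pdcd1 and Pdcd1lg2 of that set were under a mean of 1 FPKM and not tested. Of 5 nuclear import genes 1 was higher and 1 lower, and of 2 histone demethylases 0 were called (0 at an unadjusted p under 0.05).

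Over the 13 libraries, the genes whose log2(FPKM + 1) followed Ermp1 most closely were Sdc4 (Pearson r = 0.997), Acsl3 (0.996) and Aldh1a1 (0.996), of which Aldh1a1 is also on chromosome 19. Those closest to Plgrkt were Fnip2 (r = 0.985), the small nucleolar RNA Gm26236 (0.984) and Nemp2 (0.983). These values describe mainly the contrast of the cell types that the 13 libraries share, and no test was attached to them.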

How the data were processed

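Libraries were prepared from DNase-treated RNA with NuGEN RNA-Seq V2 reagents, per the labels' protocols. The submitters' processing notes name build GRCm38 and Cufflinks, Cuffnorm, DESeq2, HTSeq 0.6.1p1, Bowtie2 2.2.3, TopHat2 2.0.11 and FastQC. The settings, annotation and use of strand are not stated there. The authors deposited FPKM for 39171 genes in 13 libraries, of which 8898 were at 0 in every library. For each cell type they also deposited a table of called genes. Per the file headers, these tables hold the mean normalised counts of each genotype (a signal), log2 fold changes of WT over KO, a standard error and test statistic (a score), and the p-value and adjusted p.

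Since FPKM are no counts, count models were not used. Of the identifiers, 37691 (96.2%) were found in GENCODE mouse release 21 on GRCm38, which gave positions. Promoter sequences came from RefSeq on GRCm38.p6.

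Groups were compared with limma 3.58.1 in R 4.3.3 (two-sided moderated test, trend on) using log2(FPKM + 1) values. Genes with a mean of at least 1 FPKM were kept, with Il33 and the 10 listed genes kept in any case. In microglia and in astrocytes 9 of the 10 reached that mean, with Gldc and Cd274 the exceptions. A call was a Benjamini-Hochberg adjusted p below 0.05 over all genes tested. Microglia were fitted alone and astrocytes alone with age as a covariate; the interaction and the WT cell type contrast came from 1 fit of all 13 libraries with age. The limma code was tested on simulated data. Python 3.11.15 and pandas 2.3.3 were used for the rest. Alternatives were a pseudocount of 0.1, no filter on low values, quantile normalisation, the replicate number as a block, no age covariate, day 12 libraries only, and each library left out.

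The genes named were Il33, the 10 listed genes, the 3 window genes and the 2 partners with the smallest p per cell type where none passed, the 3 genes most like the highest listed gene of each cell type, and Xist. Amt, Gcsh, Shmt1, Slc6a9, Ide, Ptar1, 9930021J03Rik, Mir101b, Cd80, Cd86, Pdcd1 and Pdcd1lg2 were named after their values were seen. The listed genes, sets and tests were chosen with earlier results of these data known. Counting error could not be computed, since depth is unknown.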

Additional observations from a re-analysis of the deposited data

Results flagged for a closer look

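Il33 differed between cell types in its genotype difference. On the log2(FPKM + 1) scale, KO minus WT in microglia exceeded KO minus WT in astrocytes by 5.10 (SE 0.51, limma adjusted p = 0.00177). Il33 stood at 0.136, 0.00739 and 0 FPKM in KO microglia, against 0.299, 0 and 1.26 in WT microglia, and at 0.424 to 2.28 FPKM in KO astrocytes, against 96.3 to 113 in WT astrocytes. The difference ranged from 4.84 to 5.42 over 16 alternatives and passed in 15 of them. With a pseudocount of 0.1 FPKM it was 4.91 (limma adjusted p = 0.467). None of the 10 listed genes met a rule for a closer look. In the 11 sets of 4 KO astrocyte values, those of the 10 listed genes and Il33, 0 held a library far from the others by Dixon's test.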

How the results depend on the processing

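Over 100, 130 and 160 alternative fits of the 10 listed genes in microglia, astrocytes and the interaction, 0 gave a limma adjusted p under 0.05. The lowest were 0.477, 0.722 and 0.519. Few genes of the whole table passed in these fits, at 3 to 48 in microglia, 0 to 8 in astrocytes and 15 to 75 in the interaction. Astrocyte fits with no filter, in day 12 libraries only, with the replicate block, and without KO library 2 or WT library 3 called 0 genes. In those fits 0 calls among the listed genes follow from this and show nothing about them. Directions near 0 did change. Leaving out 1 library at a time gave -0.45 to 0.070 for Uhrf2, -0.26 to 0.12 for Ranbp6, -0.096 to 0.60 for Kdm4c and -0.045 to 0.47 for Glis3 in microglia. In astrocytes it gave -0.33 to 0.14 for Gldc, -0.21 to 0.31 for Ranbp6, -0.11 to 0.24 for Kdm4c, -0.25 to 0.17 for Jak2 and -0.67 to 0.093 for Rcl1. In the interaction it gave -0.42 to 0.11 for Gldc, -0.38 to 0.17 for Ranbp6, -0.17 to 0.52 for Kdm4c, -0.022 to 0.16 for Ermp1, -0.29 to 0.13 for Jak2 and -0.10 to 0.29 for Cd274. Between WT cell types it gave -0.20 to 0.22 for Ranbp6. Day 12 libraries only gave -0.21 for Ranbp6 and 0.093 for Rcl1 in astrocytes, and without either day 9 library the values were the same, since age then fits the lone day 9 library exactly. The Ermp1 interaction was -0.020 after quantile normalisation, and Ranbp6 between WT cell types was 0.0016 with a pseudocount of 0.1 FPKM.

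Counts of called genes over the whole table moved more. In microglia the 13 became 25 with a pseudocount of 0.1, 7 with no filter and 18 to 48 without 1 library, the highest without KO library 1. In astrocytes the 3 became 5 with a pseudocount of 0.1, 0 with no filter (847 at an unadjusted p under 0.05 with limma), 0 in day 12 libraries only (736) and 0 to 8 without 1 library (0 without KO library 2 or WT library 3). In the interaction the 23 became 37 with no filter and 15 to 75 without 1 library, the highest without KO microglia library 1. The window medians moved to -0.050 within 5 Mb, 0.056 over the chromosome and -0.087 with no filter in microglia, and to -0.031 over the chromosome and -0.050 with no filter in astrocytes. The cause of these moves was not tested. Between WT cell types, 82 of 90 alternative values of the listed genes kept their direction and their side of the threshold.

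The main fits did not pair samples by replicate number, and whether the numbers mark pairs was not tested. Same-numbered KO and WT libraries deviated from their group means with correlations of 0.028, 0.0099 and 0.023 in microglia and 0.021, -0.078 and -0.017 in astrocytes. With the replicate block, 3 genes were called with limma in microglia and 0 in astrocytes (468 at an unadjusted p under 0.05), and Kdm4c in astrocytes was -0.080. Each microglia library correlated best with its own number, weakly.

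The absolute depth is unknown, and the shallower astrocyte libraries limit genes near 0 FPKM, such as Cd274.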
